A study of Homo sapiens with 4 samples.

Results

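The inhibitor of apoptosis (IAP) genes BIRC2, BIRC3, BIRC6 and XIAP, their mitochondrial antagonists DIABLO and HTRA2, and the apoptosome genes APAF1 and CASP9 were followed in a renal clear cell carcinoma line. They were chosen by gene name and make up 8 of the 58735 genes measured. DIABLO has 2 records in the tables, so the 8 genes gave 9 entries. The cells were 769-P, a human line derived from renal clear cell carcinoma. All 4 RNA sequencing libraries came from cells with a stably transfected, inducible short hairpin RNA (shUSP35) against USP35, a deubiquitylating enzyme, on a background labelled wild type and grown with puromycin. Of these, 2 were left untreated as controls, and the other 2, called sh2 by the submitters, came from cells given doxycycline at 1 µg/ml for 4 days. By its title the series is about cell death and survival, and the comparison asked whether the transcripts of this pathway differed once the hairpin was induced. A single hairpin was used, cells given doxycycline but lacking the hairpin were not analysed here, and the sources do not say whether the line was 1 clone or whether replicates were separate cultures. The p-values therefore rest on how far these libraries differ within a group, which may be technical variation alone.

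In the mitochondrial route to apoptosis, cytochrome c leaves the mitochondria and joins APAF1, which assembles into the apoptosome and activates the initiator caspase CASP9. CASP9 then activates further caspases by cleavage. XIAP blocks caspases directly through its BIR domains, whereas BIRC2 (cIAP1) and BIRC3 (cIAP2) are ubiquitin ligases that act mainly at the tumour necrosis factor receptor, and BIRC6 is a giant protein that joins a BIR domain to a ubiquitin-conjugating domain. DIABLO (also called Smac) and HTRA2, a serine protease, are released from mitochondria as well and bind the BIR domains, which frees the caspases.

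The libraries held between 16319640 and 18764546 reads, recovered from the deposited values. USP35, the targeted gene, stood at 3.31 and 4.19 FPKM in untreated cells and 2.11 and 2.54 FPKM with doxycycline (ratio of means 0.620, limma adjusted p = 0.256), so both doxycycline libraries lay below both controls although the test was not passed. FPKM counts fragments relative to gene length and library size. The length used was that of all annotated exons of a gene, whichever of them were expressed, so levels compare only roughly between genes. Kidney epithelial markers were present, with PAX8 between 38.5 and 53.9 FPKM, while CA9 and NDUFA4L2, usual markers of clear cell carcinoma, lay at or under 0.0899 FPKM. None of the 6 leukocyte, 5 endothelial and 5 fibroblast or pericyte markers reached a mean of 1 FPKM. The doxycycline libraries differed from each other: 12 interferon response genes summed to 102 and 105 FPKM in untreated cells, 1589 FPKM for doxycycline replicate 1 and 176 FPKM for replicate 2, and mitochondrially encoded genes took 8.21%, 8.50%, 7.44% and 14.6% of the reads in that order.

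XIAP and BIRC2 transcripts lay above both controls in both doxycycline libraries, CASP9 also did at a low level, and APAF1 lay slightly below. BIRC3 was near its control level in one doxycycline library and well below it in the other, and BIRC6 and HTRA2 overlapped between the groups. No member passed the test, which was limma on log2(FPKM + 1) over the 12029 genes whose mean reached 1 FPKM, with a Benjamini-Hochberg adjusted p under 0.05 as the threshold. Of all genes tested, 0% passed, and 2204 (18.3%) had an unadjusted p under 0.05, among them 1 member, XIAP. With limma-voom on recovered reads 0 members passed as well, and 2 had an unadjusted p under 0.05. Of the 8 members 7 entered the test. DIABLO was too low, and CASP9 reached the mean of 1 FPKM only through its doxycycline libraries. Of the 7, 3 had both doxycycline libraries above both controls, against 24.3% of all genes, 1 had both below, against 28.9%, and 3 overlapped. The groups thus stood apart for 4 of 7, against 53.2% of all genes tested. In such bulk RNA, fewer cells with a transcript and less of it per cell cannot be told apart.

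**Figure D1:**
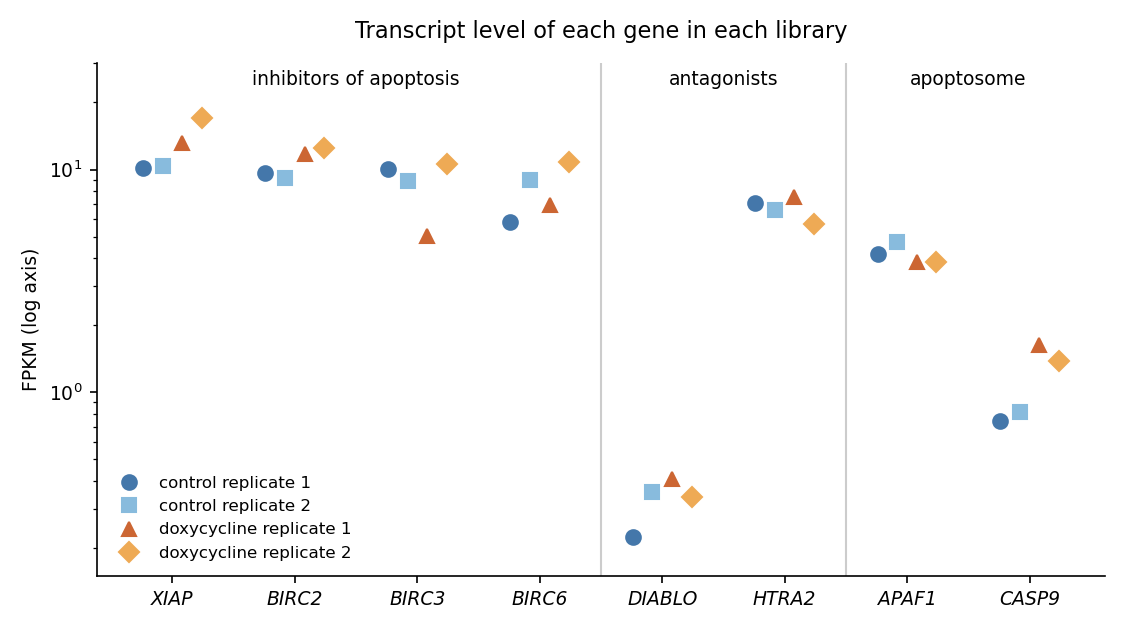
FPKM (log axis) of the 8 genes in each of the 4 libraries, arranged by role, with 1 point per library and the first DIABLO record shown. XIAP, BIRC2 and CASP9 have both doxycycline points above both control points, BIRC3 has 1 low doxycycline point at 5.02 FPKM, and DIABLO lies under 0.5 FPKM throughout.

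Among the 4 inhibitors XIAP, BIRC2, BIRC3 and BIRC6, XIAP had the highest mean level in both groups. XIAP (ENSG00000101966, GRCh38 chromosome X, 123859724 to 123913979, plus strand) stood at 10.1 and 10.4 FPKM in controls 1 and 2, and at 13.2 and 17.1 FPKM in doxycycline replicates 1 and 2. Both doxycycline libraries lay above both controls, and replicate 2 was the highest. The means were 10.3 ± 0.181 and 15.1 ± 2.77 FPKM (SD, n = 2 each), a ratio of 1.48. The difference on the log2(FPKM + 1) scale was 0.51 with a standard error of 0.20 (limma unadjusted p = 0.0473, adjusted p = 0.268). The library with the higher XIAP value was also the one with 14.6% mitochondrially encoded reads, whose part in this result was not tested. In a fit without mitochondrially encoded genes, the total of the other reads also replaced the authors' library size. The XIAP difference was then 0.60, and the shares of these 2 changes in it were not separated. With doxycycline replicate 1 left out, the difference of 0.68 passed (adjusted p = 0.0151), as did 3942 of the 12029 genes in that fit, and without replicate 2 it was 0.33.

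BIRC2 and BIRC3 are neighbours on chromosome 11, 7807 bases apart on the same strand, with no other expressed coding gene between them. Their values lay on opposite sides of the controls in doxycycline replicate 1 and above them in replicate 2, and neither gene passed the test. BIRC2 (ENSG00000110330, 102347211 to 102378670) stood at 9.64 and 9.20 FPKM in untreated cells and at 11.8 and 12.4 FPKM with doxycycline. The libraries of a group lay close together, 1.05-fold apart in the controls and 1.06-fold apart with doxycycline, and the groups did not overlap. The means were 9.42 ± 0.311 and 12.1 ± 0.484 FPKM (SD, n = 2 each), a ratio of 1.29, with a log2 difference of 0.33 ± 0.18 (SE, limma adjusted p = 0.369). BIRC3 (ENSG00000023445, 102317450 to 102339403) stood at 10.0 and 8.91 FPKM in untreated cells, 5.02 FPKM for doxycycline replicate 1 and 10.6 FPKM for replicate 2. Replicate 1 was thus the lowest of the 4 libraries and replicate 2 the highest. The log2 difference was -0.32 ± 0.33 (SE, limma adjusted p = 0.618), and it became 0.15 without doxycycline replicate 1 and -0.80, past the threshold, without replicate 2 (adjusted p = 0.00953), where 1605 of the 12029 genes passed. The doxycycline libraries differed 2.12-fold, a gap on the log2(FPKM + 1) scale that was larger than that of 92.2% of all genes tested. The low BIRC3 value came from the library whose interferon response genes summed to 1589 FPKM, and the part of that in the result was not tested. Taken as a ratio within a library, which library size does not touch, BIRC3 to BIRC2 was 1.04 and 0.968 in untreated cells, 0.427 for doxycycline replicate 1 and 0.853 for replicate 2. Both doxycycline ratios lay below both control ratios, although an exact permutation test of 2 against 2 libraries cannot give a two-sided p below 0.333. In replicate 2 BIRC3 was at its highest, so the lower ratio there follows from BIRC2 lying above the controls. It adds no separate result on BIRC3 in that library.

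The 2 genes are paralogs, and their coding sequences were identical at 79.8% of the 1799 aligned bases. Reads can be mixed up only where the copies match over a read's length. The longest identical run, 60 bases, is shown in capitals within 100 bases of each coding sequence (GENCODE release 29, GRCh38), at chr11:102350057-102350156 for BIRC2 and chr11:102324661-102324760 for BIRC3, both on the plus strand and inside 1 exon.
BIRC2: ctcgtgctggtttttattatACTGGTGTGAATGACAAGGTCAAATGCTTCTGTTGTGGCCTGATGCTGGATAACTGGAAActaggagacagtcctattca
BIRC3: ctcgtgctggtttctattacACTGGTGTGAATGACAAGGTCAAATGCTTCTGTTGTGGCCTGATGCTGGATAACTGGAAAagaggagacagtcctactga
Of all 50-base words in the annotated transcripts, 11 were common to both genes, which is 0.224% of those of BIRC2 and 0.144% of those of BIRC3. The read length is not given in the sources used here. For XIAP, 4.56% of the words were found in another gene, most often in its pseudogene XIAPP1. XIAP shared no identical coding run over 14 bases with BIRC2 or BIRC3, and 34 bases with BIRC8, a close relative that had 0 reads in every library.

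BIRC3 is a known target of the transcription factor NF-kB, and its promoter window is shown because BIRC3 differed most between the doxycycline libraries among the members tested. Of the 300 bases around the RefSeq start (GRCh38.p14), the 250 upstream bases at chr11:102317234-102317483, plus strand, are printed, with matches to the 10-base NF-kB consensus, read on either strand, in capitals.
BIRC3: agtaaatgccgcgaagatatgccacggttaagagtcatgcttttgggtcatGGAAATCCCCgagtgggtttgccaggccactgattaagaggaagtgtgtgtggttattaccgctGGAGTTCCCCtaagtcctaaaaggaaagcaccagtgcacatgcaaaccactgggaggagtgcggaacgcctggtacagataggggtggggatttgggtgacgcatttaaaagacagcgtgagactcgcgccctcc
There were 2 matches, beginning 199 and 135 bases before the start. The consensus was found in 11.3% of all 35116 promoter windows of this length, in 1 of the 2 windows of BIRC6, and in 0 of the windows of the other 6 members, among them 2 for BIRC2 and 3 for XIAP. A match is a description of the letters and not of a bound site, and its part in the BIRC3 values was not tested.

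BIRC6 differed more between the untreated libraries than between the groups. BIRC6 (ENSG00000115760, chromosome 2, 32357028 to 32618899, plus strand) stood at 5.83 and 8.98 FPKM in untreated cells and at 6.90 and 10.8 FPKM with doxycycline. The groups overlapped, and the controls alone differed 1.54-fold, a log2 gap larger than that of 95.4% of all genes tested. The values rested on 1651, 2793, 2315 and 3526 reads, so counting error was small beside this spread. The log2 difference was 0.22 ± 0.29 (SE, limma adjusted p = 0.699), and it became -0.05 when control replicate 1 was left out and -0.06 when doxycycline replicate 2 was.

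**Figure D2:**
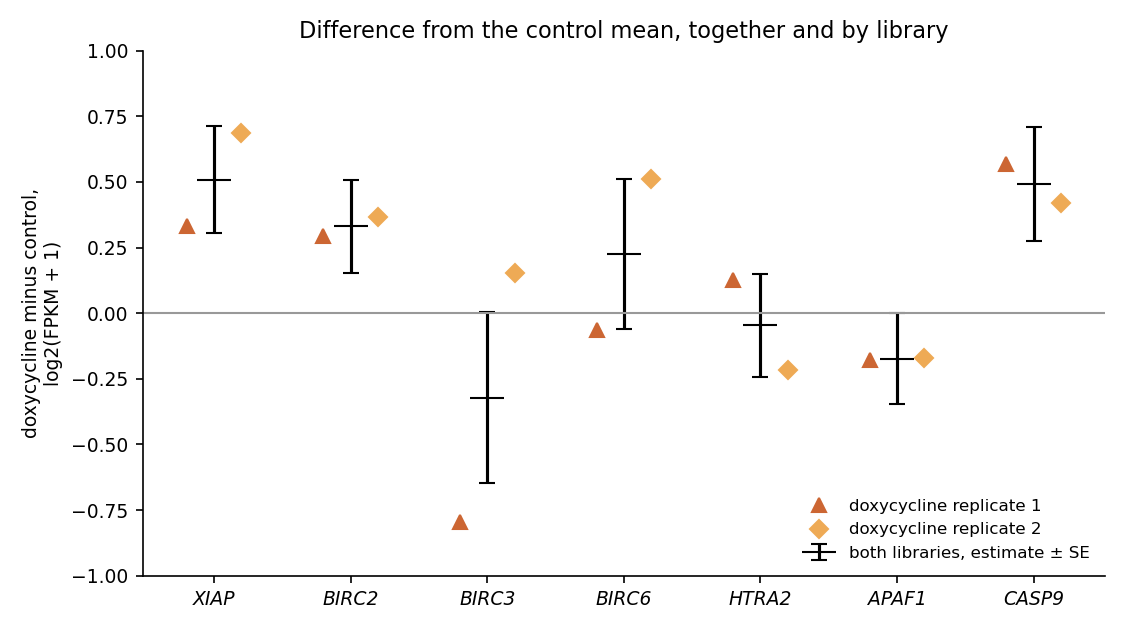
Difference between doxycycline and the control mean on the log2(FPKM + 1) scale for the 7 genes tested. Horizontal ticks with whiskers show the estimate over both doxycycline libraries ± SE, triangles doxycycline replicate 1 and diamonds replicate 2. The 2 libraries lie on the same side of 0 for XIAP, BIRC2, APAF1 and CASP9 and on opposite sides for BIRC3, BIRC6 and HTRA2.

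The antagonists and CASP9 carry a short IAP-binding motif, exposed once the protein is processed, that docks into the BIR domain. The coding bases around it are shown because they tell which reads the tables could have counted. Capitals mark the 12 bases that encode the 4 residues of the motif, which begins at residue 56 of DIABLO, 134 of HTRA2 and 316 of CASP9 (GENCODE release 29, GRCh38). The stretches lie at chr12:122218380-122224553 on the minus strand for DIABLO, where an intron interrupts them, at chr2:74530382-74530441 on the plus strand for HTRA2, and at chr1:15495340-15495399 on the minus strand for CASP9.
DIABLO: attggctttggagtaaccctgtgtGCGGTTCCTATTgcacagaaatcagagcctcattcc
HTRA2: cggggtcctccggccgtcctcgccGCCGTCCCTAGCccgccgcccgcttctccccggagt
CASP9: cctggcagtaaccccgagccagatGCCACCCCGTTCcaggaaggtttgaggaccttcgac
All 60 bases printed for DIABLO also belong to exons of another annotated gene on the same strand, while 0 of the 60 do for HTRA2 and for CASP9.

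DIABLO was listed far below its partners, under both of its records. The first record (ENSG00000184047, chromosome 12, 122207663 to 122226568, minus strand) stood at 0.223 and 0.356 FPKM in untreated cells and at 0.408 and 0.339 FPKM with doxycycline, from 24, 42, 52 and 42 reads. The groups overlapped, and the log2 difference was 0.09. The second record (ENSG00000284934, 122207662 to 122227534) held 2, 1, 1 and 0 reads. The 2 records share 2006 exon bases, 1139 of which, in each record, also lie in a further gene on that strand, AC048338.1, which had 0 reads in all libraries. Of the coding bases, 60.1% of the first record and all 849 of the second lay in exons of another gene. How reads on shared bases were counted is not given in the sources used here, and the part of this overlap in the low DIABLO values was not tested. The values are therefore no measure of the total DIABLO transcript, and no ratio of DIABLO to the inhibitors was formed.

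**Figure D3:**
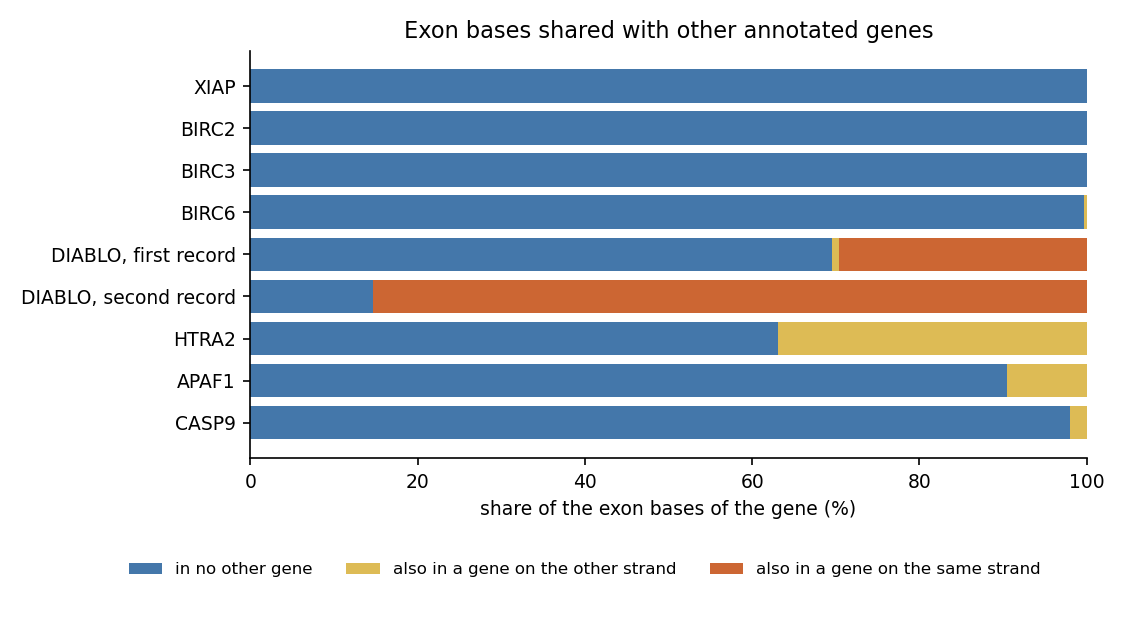
Share of the exon bases of each gene (%) that lie in no other annotated gene, in a gene on the other strand only, or in a gene on the same strand, from GENCODE release 29. The second DIABLO record (85.4% shared), HTRA2 (36.9%) and the first DIABLO record (30.4%) share most, and XIAP, BIRC2 and BIRC3 share none.

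HTRA2 showed no separation between the groups. HTRA2 (ENSG00000115317, chromosome 2, 74529377 to 74533348, plus strand) stood at 7.06 and 6.56 FPKM in untreated cells, 7.52 FPKM for doxycycline replicate 1 and 5.71 FPKM for replicate 2, so the doxycycline libraries held both the highest and the lowest value. The log2 difference was -0.05 ± 0.20 (SE, limma adjusted p = 0.921). It was 0.03 after mitochondrially encoded genes were left out and the total of the other reads replaced the authors' library size. Without doxycycline replicate 2 it was 0.13. Of its 3001 exon bases, 625 overlap LOXL3 and 483 overlap AUP1, both on the minus strand. Strandedness is not given in the sources used here, so reads of the partners cannot be told apart there. AUP1 stood at 45.97 and 39.8 FPKM in untreated cells and at 35.4 and 23.5 FPKM with doxycycline, and LOXL3 at or under 0.061 FPKM.

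Neither apoptosome gene passed the test, and the doxycycline values of CASP9 lay above the controls and those of APAF1 just below. CASP9 (ENSG00000132906, chromosome 1, 15490832 to 15526534, minus strand) stood at 0.742 and 0.817 FPKM in untreated cells and at 1.64 and 1.38 FPKM with doxycycline. These values rested on 62, 75, 162 and 133 reads. The groups did not overlap, nor did the exact Poisson intervals at 95%, which reached up to 0.951 and 1.02 FPKM in untreated cells and down to 1.39 and 1.15 FPKM with doxycycline. Such intervals cover counting error only. The means were 0.780 ± 0.0535 and 1.51 ± 0.182 FPKM (SD, n = 2 each), a ratio of 1.93, the largest among the 7 genes tested. CASP9 entered the test only through its doxycycline libraries, which favours a high ratio, so its rank among the 7 is no separate result. The log2(FPKM + 1) difference of 0.49 ± 0.22 (SE, limma adjusted p = 0.295) understates the ratio of so low a gene, and limma-voom on recovered reads gave 0.98 (adjusted p = 0.212). APAF1 (ENSG00000120868, chromosome 12, 98645141 to 98735433, plus strand), the scaffold of the apoptosome, stood at 4.19 and 4.75 FPKM in untreated cells and at 3.83 and 3.86 FPKM with doxycycline. Both doxycycline libraries lay just below both controls, with a ratio of means of 0.861 and a log2 difference of -0.17 ± 0.17 (SE, limma adjusted p = 0.615). Within a library, APAF1 to CASP9 was 5.65 and 5.81 in the controls and 2.34 and 2.80 with doxycycline, while XIAP to CASP9 was 13.7 and 12.7 in the controls and 8.05 and 12.4 with doxycycline. All doxycycline ratios lay below the controls for both pairs, by little for XIAP to CASP9 in doxycycline replicate 2. For APAF1 to CASP9 this follows from APAF1 lying below and CASP9 above the controls, so the ratio adds no separate result. Both pairs share CASP9 as the lower term.

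**Figure D4:**
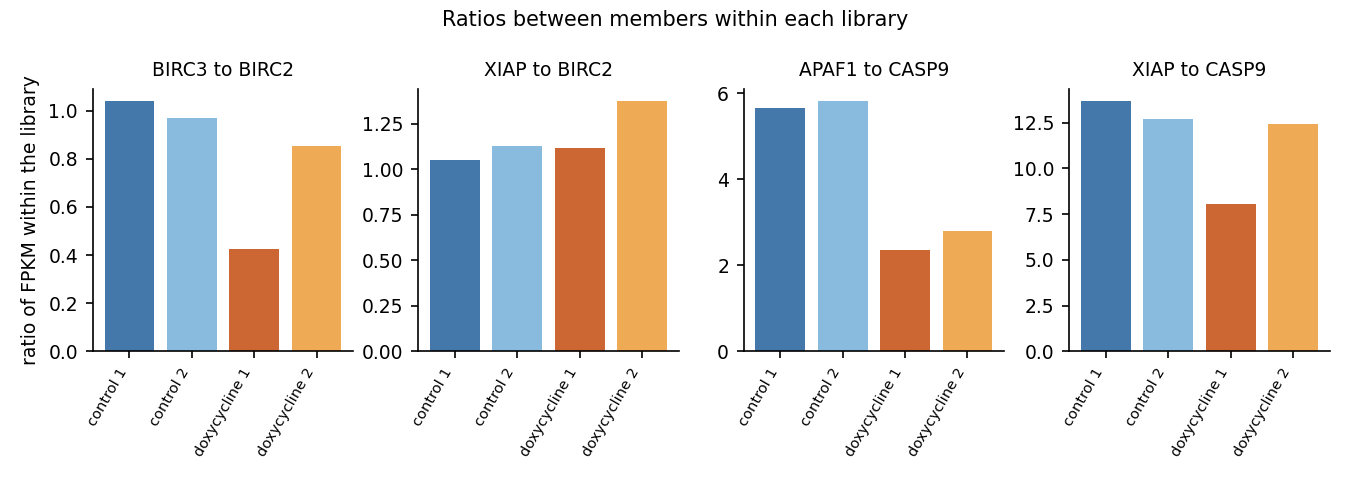
Ratio of FPKM between 2 members within each library, for BIRC3 to BIRC2, XIAP to BIRC2, APAF1 to CASP9 and XIAP to CASP9, with 1 bar per library. APAF1 to CASP9 is 5.65 and 5.81 in the controls and 2.34 and 2.80 with doxycycline, and the XIAP to BIRC2 ratio of doxycycline replicate 1 (1.12) lies between those of the controls (1.05 and 1.13).

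Per length, the order of listed levels in the controls was XIAP, BIRC3, BIRC2, BIRC6, HTRA2, APAF1, CASP9 and DIABLO, by mean. The last place of DIABLO holds for its listed values only, which do not measure its total transcript. HTRA2 shares 36.9% of its exon bases with other genes, so its place is also uncertain. XIAP and BIRC3 were barely separated, with the lowest XIAP library at 10.1 FPKM and the highest BIRC3 library at 10.0 FPKM, and BIRC3 with BIRC2 and BIRC6 with HTRA2 overlapped. HTRA2 lay above APAF1, and APAF1 above CASP9, in every library of both groups. By control mean, XIAP stood at the 64.1st percentile of the genes tested and BIRC2 at the 61.4th, whereas APAF1 stood at the 39.6th and CASP9 at the 1.49th. The CASP9 control mean of 0.780 FPKM lay under the filter of 1 FPKM, which the gene passed only through its doxycycline libraries. Its place near the bottom was thus set by the filter.

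Of the genes outside the 8, the values most like BIRC2 over the 4 libraries were those of HAUS6 (root mean square difference 0.00553 in centred log2 units) and TNIP1 (0.0110), among the 6927 genes whose mean reached 5 FPKM. For XIAP they were TTC32 (0.0140) and ZDHHC9 (0.0175), and for BIRC3 KDELR2 (0.0314) and ADAM9 (0.0448). KDELR2 stood at 67.4 and 58.9 FPKM in untreated cells, 36.8 FPKM for doxycycline replicate 1 and 67.98 FPKM for replicate 2. With 4 libraries and this many genes, near matches are found for most patterns.

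Around the 8 genes, 57 other genes of the pathway in 7 lists were read from the same fit, of which 49 entered the test. Survivin, the kinase NIK and lamin B1 stood out with lower values in both doxycycline libraries, while cytochrome c overlapped between groups. Of the 49, 0 passed over all genes, against 0% of all genes, and 1 was higher and 7 lower at an unadjusted p under 0.05, against 6.47% and 11.9% of all genes. Of these 49, 8 had both doxycycline values above both controls, against 24.3% of all genes, and 18 had both below, against 28.9%. The median log2 difference was -0.10, against -0.03 over all genes tested. The lists were written with earlier results of these data known, so these counts are a description.

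Of the other IAP genes, only BIRC5 was expressed enough to be tested. BIRC5, or survivin, which works mainly in mitosis with the chromosomal passenger complex, stood at 54.4 and 43.2 FPKM in untreated cells and at 15.7 and 12.9 FPKM with doxycycline. Its log2 difference was -1.70 ± 0.23 (SE, limma adjusted p = 0.0573), just over the threshold. NAIP, the sensor of bacterial proteins, held between 6 and 11 reads in each library, BIRC7 at most 4 and BIRC8 none.

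Of the 6 other apoptotic caspases tested, 3 overlapped between the groups and 3 did not, a share near the 53.2% of all genes that did not overlap. CASP8, the initiator at death receptors, stood at 6.65 and 6.09 FPKM in untreated cells and at 9.95 and 8.18 FPKM with doxycycline, a log2 difference of 0.45 (limma adjusted p = 0.283). CASP10, its relative, stood at 2.18 and 2.93 FPKM against 3.15 and 4.48 FPKM (adjusted p = 0.361). Both had the doxycycline libraries above the controls, and CASP2 had them below.

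All 7 mitochondrial factors tested overlapped between groups, where 53.2% of all genes tested did not overlap. CYCS, cytochrome c, stood at 67.3 and 51.1 FPKM in untreated cells, 43.3 FPKM for doxycycline replicate 1 and 78.7 FPKM for replicate 2 (limma adjusted p = 0.995). AIFM1, the apoptosis-inducing factor, stood at 36.9 and 34.8 FPKM, then 36.1 and 61.5 FPKM, and ENDOG, a mitochondrial nuclease, at 21.6 and 16.4 FPKM, then 21.7 and 8.06 FPKM. For AIFM1 and ENDOG doxycycline replicate 1 lay close to the controls and replicate 2 apart from them, in opposite directions. ENDOG shares 39.2% of its exon bases with SPOUT1.

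Among the 8 regulators of the apoptosome and of XIAP, 6 entered the test. PTMA, prothymosin alpha, which restrains apoptosome formation, stood at 329.7 and 278 FPKM in untreated cells and at 157 and 176 FPKM with doxycycline (log2 difference -0.86, limma adjusted p = 0.165). CAAP1, a conserved anti-apoptotic protein, stood at 15.3 and 13.8 FPKM against 19.5 and 26.3 FPKM (log2 difference 0.61, adjusted p = 0.239). Neither gene overlapped between groups, but they were named for the lowest p in the list. Of the 6 tested, 3 had both doxycycline libraries above both controls, against 24.3% of all genes tested. A further 1 had both below, against 28.9%, and 2 overlapped. XAF1, the XIAP-associated factor and itself an interferon-induced gene, held 0 and 1 reads in the controls, 163 reads in doxycycline replicate 1 and 0 reads in replicate 2. It was thus seen in 1 doxycycline library, the one with the high interferon response genes. XAF1 shares 38.3% of its exon bases with PRAL.

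Among the partners of BIRC2 and BIRC3, 10 of 11 entered the test, and 2 were lower at an unadjusted p under 0.05, against 11.9% of all genes tested. MAP3K14, or NIK, the kinase of the alternative NF-kB pathway that BIRC2 and BIRC3 mark for degradation through TRAF2 and TRAF3, stood at 7.06 and 6.85 FPKM in untreated cells and at 3.02 and 2.28 FPKM with doxycycline. The log2 difference was -1.13 ± 0.19 (SE, limma adjusted p = 0.0688), and the gene overlaps MAP3K14-AS1 over 12.3% of its exon bases. TRAF2, the adaptor that brings BIRC2 and BIRC3 to the receptor, stood at 21.6 and 18.4 FPKM against 14.7 and 8.47 FPKM (log2 difference -0.78, adjusted p = 0.235), and TRAF3 at 5.83 and 6.05 FPKM against 4.76 and 4.41 FPKM. All 3 had both doxycycline libraries below both controls. They were the only ones of the 10 tested that did, against 28.9% of all genes tested. A further 2 had both above, against 24.3%, and 5 overlapped. RIPK1, a ubiquitylation substrate of BIRC2 and BIRC3, stood at 8.73 and 9.39 FPKM against 8.68 and 10.2 FPKM and overlapped.

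Among the ubiquitin enzymes, UBA6, the activating enzyme that serves BIRC6, stood at 9.11 and 7.98 FPKM in untreated cells and at 5.48 and 6.84 FPKM with doxycycline (log2 difference -0.42, limma adjusted p = 0.315). UBA1, the main activating enzyme, stood at 96.7 and 98.7 FPKM against 82.98 and 77.5 FPKM (adjusted p = 0.507). Of the 13 caspase substrates tested, 9 had both doxycycline libraries below both controls and 0 above, against 28.9% and 24.3% of all genes tested. LMNB1, lamin B1 of the nuclear envelope, stood at 56.4 and 50.6 FPKM against 19.4 and 20.3 FPKM (log2 difference -1.38 ± 0.20, SE, adjusted p = 0.0573). PARP1, a DNA repair enzyme, stood at 59.6 and 55.9 FPKM against 36.9 and 40.3 FPKM (log2 difference -0.57, adjusted p = 0.233).

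**Figure D5:**
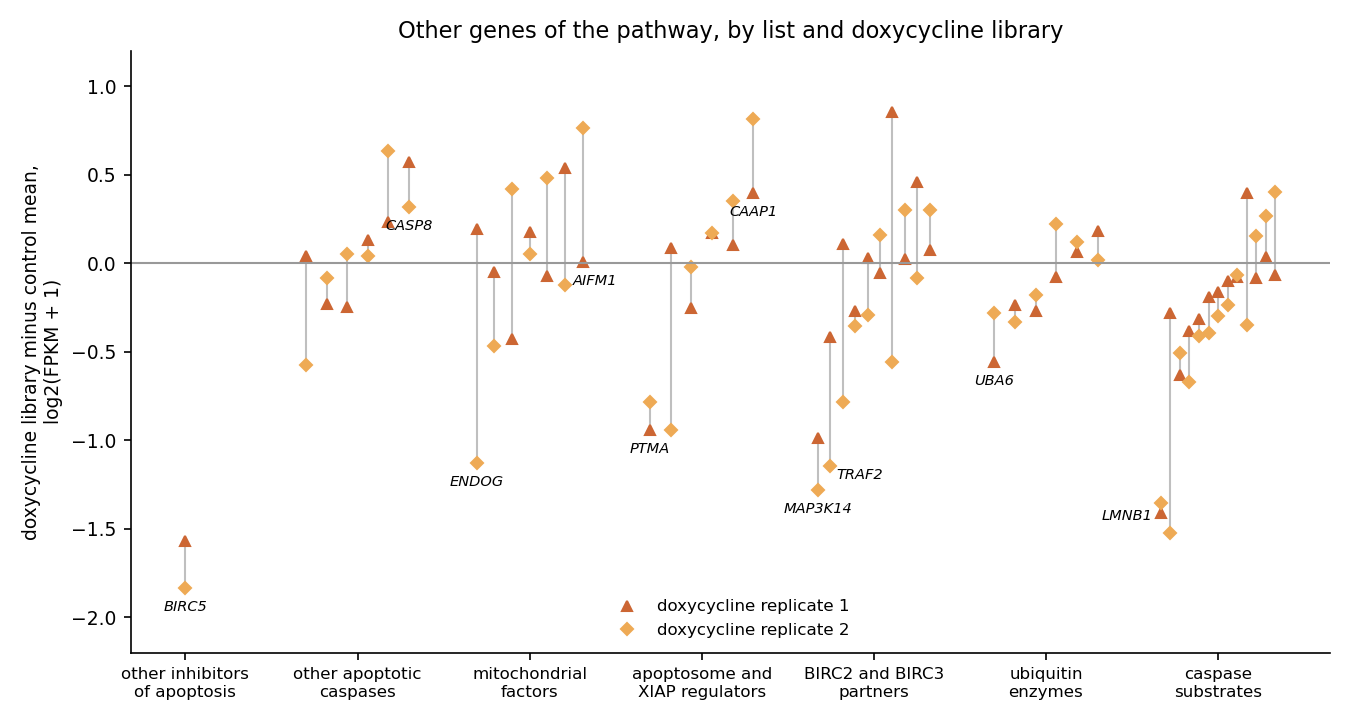
Difference between each doxycycline library and the control mean on the log2(FPKM + 1) scale for the 49 pathway genes tested, by list. Triangles are doxycycline replicate 1, diamonds replicate 2, and a line joins the 2 values of a gene. BIRC5, LMNB1 and MAP3K14 are low in both libraries, while ENDOG and AIFM1 part between them.

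Which pathway genes passed moved with the genes tested and the libraries entered. Tested among protein-coding genes alone, BIRC5, LMNB1 and MAP3K14 passed, with limma adjusted p of 0.0338, 0.0339 and 0.0438, and 0 members did. These were 3 of 49 pathway genes, against 242 of all 10228 genes in that fit. Without doxycycline replicate 1, 3 pathway genes were called higher and 11 lower, and without replicate 2, 2 higher and 4 lower, whereas without either control 0 were called. In the same fits 3942 and 1605 of the 12029 genes passed without doxycycline replicates 1 and 2, so the totals of 14 and 6 of 49 pathway genes were near the background.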

How the data were processed

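Each library came as 1 table of 58735 genes. The values were deposited as FPKM, per the file headers, and the library size behind them was set by the authors. The submitters' processing notes name HISAT2 2.0.5, featureCounts 1.5.0-p3 and also limma, without saying what each did. Genome build, strandedness and read length are not given in the sources used here. All 58735 identifiers and coordinates were identical to GENCODE release 29 on GRCh38, used for exon overlaps and coding sequences, and promoters came from RefSeq (GRCh38.p14, all 8 members matched). A further 27 gene symbols had been stored as dates and were restored by identifier.

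Multiplied by gene length, the FPKM of 100% of genes were whole multiples of the library's smallest step, within 0.02 reads, and these multiples were taken as reads. A count of 0 allows up to 3 reads, which for 2 kb is between 0.0798 and 0.0945 FPKM. The 12029 genes whose mean reached 1 FPKM were kept. Differences are doxycycline minus control on log2(FPKM + 1), fitted with limma-trend 3.58.1 in R 4.3.3 over all genes kept, two-sided, without covariates, on 2 residual degrees of freedom, and adjusted after Benjamini and Hochberg. Groups and replicate numbers came from the sample titles. The 15 alternatives changed the pseudocount, filter, genes tested, scaling, test, replicate block or libraries entered. The fit without mitochondrially encoded genes also replaced the authors' library size by the total of the other reads. The main fit and the recovery of reads were tested on simulated reads. The simulation did not copy the split between the doxycycline libraries, and other steps were not tested in this way. Python 3.11.15, pandas 2.3.3, numpy 2.4.6, scipy 1.17.1, Biopython 1.88 and matplotlib 3.10.9 were used.

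The members and lists were chosen with earlier results of these data known. Named are all members, USP35, the 2 genes of each list with the lowest p, 9 pathway genes set with the lists (some are not reported here), and the 2 genes most like BIRC2, BIRC3 and XIAP. CASP2, TRAF3, RIPK1, BIRC7, BIRC8 and the markers and overlapping genes are named outside that rule, after their values were seen.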

Additional observations from a re-analysis of the deposited data

How the results depend on the processing

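The 2 libraries per group and the split between the doxycycline libraries limit these results most. No member passed with all 4 libraries as first fitted or in the 11 alternatives that kept all 4 libraries. Over leave-one-out fits, where a lone library is assumed to vary like the others, the number of members called ran from 0 to 1, of pathway genes from 0 to 14, and of all genes from 0 to 3942. Of all genes, 0 of 12029 passed as first fitted. With a mean of at least 5 FPKM 261 of 6932 passed, and among protein-coding genes 242 of 10228. With limma-voom on median-of-ratios sizes 121 of 12029 passed. Of pathway genes, 2 of 40, 3 of 49 and 2 of 49 passed, in the same order. With the replicate number as a block, 784 genes and 3 pathway genes passed, and 0 members. Deviations of same-numbered libraries correlated at 0.207 across genes, but with 2 pairs the libraries share only a number. BIRC2, XIAP and CASP9 kept a positive and APAF1 a negative difference in every alternative that tested them. The ranges were 0.29 to 0.42, 0.33 to 0.68, 0.42 to 0.98 and -0.25 to -0.10. For these genes both doxycycline libraries lay on the same side of both controls. Leaving out a library therefore could not change the sign, and the kept signs add little to that separation. Signs changed for BIRC3 (leave-one-out range -0.80 to 0.15), BIRC6 (-0.06 to 0.51, where leaving out control replicate 1 gave -0.05 and leaving out doxycycline replicate 2 gave -0.064) and HTRA2 (-0.22 to 0.13, and 0.035 without mitochondrially encoded genes), and the cause was not tested. At about 24 to 52 reads, DIABLO allows no statement on small differences.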

Other observations

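The coding genes tested that flank the BIRC3 and BIRC2 pair on chromosome 11 did not follow BIRC2. YAP1, a transcriptional coactivator of the Hippo pathway that lies before BIRC3 (102110461 to 102233423), stood at 13.7 and 15.1 FPKM in untreated cells and at 5.54 and 9.59 FPKM with doxycycline (log2 difference -0.89, limma adjusted p = 0.181). TMEM123, a membrane protein gene that lies after BIRC2 (102396332 to 102470384), stood at 38.1 and 34.1 FPKM in untreated cells and at 17.7 and 23.7 FPKM with doxycycline (log2 difference -0.79, adjusted p = 0.174). Both had the doxycycline libraries below the controls, as 28.9% of all genes tested did, with doxycycline replicate 1 the lowest. BIRC3 was also lowest in that library, at 5.02 FPKM, but highest in replicate 2, whereas BIRC2 had both doxycycline libraries above the controls. YAP1 and TMEM123 were chosen by position.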
